A study of Mus musculus with 22 samples.

Results

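10 genes of smooth muscle cells and pericytes were followed in the mammary tissue of 22 mice. They were chosen by gene symbol, out of 52526 distinct symbols in the deposited tables, of which 15138 were tested. 7 encode parts of the contractile machinery (Acta2, Myh11, Tagln, Cnn1, Mylk, Myl9 and Lmod1). The other 3 are the pericyte gene Rgs5 and the receptors Notch3 and Pdgfrb. All 10 were above the lower limit of the files, 1 CPM (a read count scaled to the depth of the library), in all 22 mice, so none was lost to the filter on low values.

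Smooth muscle cells of arteries and veins contract when calcium activates myosin light chain kinase, which phosphorylates the myosin light chain. Pericytes sit along capillaries, and their growth and attachment depend on PDGF-B from endothelial cells acting on Pdgfrb, while Notch3 on mural cells answers ligands such as Jag1 on endothelium. Many contractile genes are switched on by serum response factor with myocardin, bound at a DNA element called the CArG box. In the mammary gland the myoepithelial cells around the ducts share much of this contractile machinery, so whole tissue RNA does not separate them from vessel walls.

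The mice were female C57BL/6J, aged 7 to 8 weeks, and lived for 2 weeks with a Fast-Trac wheel or with only its hub (control). Each received liposomes holding phosphate-buffered saline (PBS) or clodronate, a drug taken up by phagocytes, 24 h before and again at engraftment. All were engrafted in the left mammary gland number 4 with EO771 mouse mammary cancer cells carrying firefly luciferase, and the tissue was taken 24 h later. The groups were control with PBS (6 mice), wheel with PBS (6), control with clodronate (5) and wheel with clodronate (5), each mouse being a separate sample of experiment 1. RNA was counted at transcript 3′ ends (QuantSeq 3′ FWD).

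Depth was 13256467 to 20484578 reads per mouse, with 57.4% to 64.6% of them assigned to genes. Of the markers of 9 other cell types, each found in the tables was above 1 CPM in at least 1 mouse, and the adipocyte genes Adipoq and Cfd had median levels of 1407 and 6996 CPM. The lymphocyte marker score, a mean of log2(CPM + 1), lay between 4.73 and 6.17 in 5 mice and between 1.34 and 1.91 in the other 17. These 5 mice were 1 of 6 in control with PBS, 1 of 6 in wheel with PBS, 0 of 5 in control with clodronate and 3 of 5 in wheel with clodronate. The macrophage score, for the cells that clodronate liposomes are used to remove, had group medians of 4.55, 4.44, 3.91 and 4.53 in the same order.

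Acta2, the smooth muscle actin of the thin filament (chr19:34241090-34255590, minus strand, GRCm38), ranged from 66.5 to 269 CPM over the 22 mice with a median of 157 CPM. Myh11, the heavy chain of smooth muscle myosin (chr16:14194535-14291372, minus strand), ranged from 13.8 to 84.6 CPM, a spread of 6.12 times. Cnn1, calponin, which binds actin and slows myosin (chr9:22099216-22109630, plus strand), ranged from 3.28 to 38.1 CPM, or 11.6 times, and had the highest coefficient of variation of the 10, 48.0%. These spreads are over all 22 mice. Within groups they differed, and Myh11 ranged from 36.9 to 75.3 CPM in wheel mice with PBS and from 13.8 to 84.6 CPM in control mice with clodronate.

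Mylk, the kinase that acts on the light chain (chr16:34745210-35002420, plus strand), ranged from 50.2 to 277 CPM. Its substrate Myl9 (chr2:156775420-156781658, plus strand) ranged from 15.3 to 50.7 CPM. Tagln, an actin-binding protein of smooth muscle (chr9:45929619-45936058, minus strand), ranged from 10.97 to 42.8 CPM. An exon of Pcsk7 lies on the opposite strand over the last 400 bases of Tagln, so Tagln reads are uncertain if strand was not used in counting. Lmod1, leiomodin, which nucleates actin filaments (chr1:135324807-135368065, plus strand), ranged from 3.15 to 28.9 CPM, with 42 to 501 reads behind each value.

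Rgs5, a regulator of G-protein signalling used as a pericyte marker (chr1:169655501-169695813, plus strand), ranged from 47.9 to 191 CPM. Notch3 (chr17:32120820-32166852, minus strand) ranged from 11.5 to 34.3 CPM and had the lowest coefficient of variation, 25.1%. Pdgfrb, on chromosome 18, ranged from 5.84 to 25.4 CPM. Over the 10 genes the ranges of any 2 groups overlapped in 60 of 60 pairs of groups, as the plot of the genes by group shows. The share over all genes tested was not computed, so this count does not set the 10 genes apart.

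**Figure D1:**
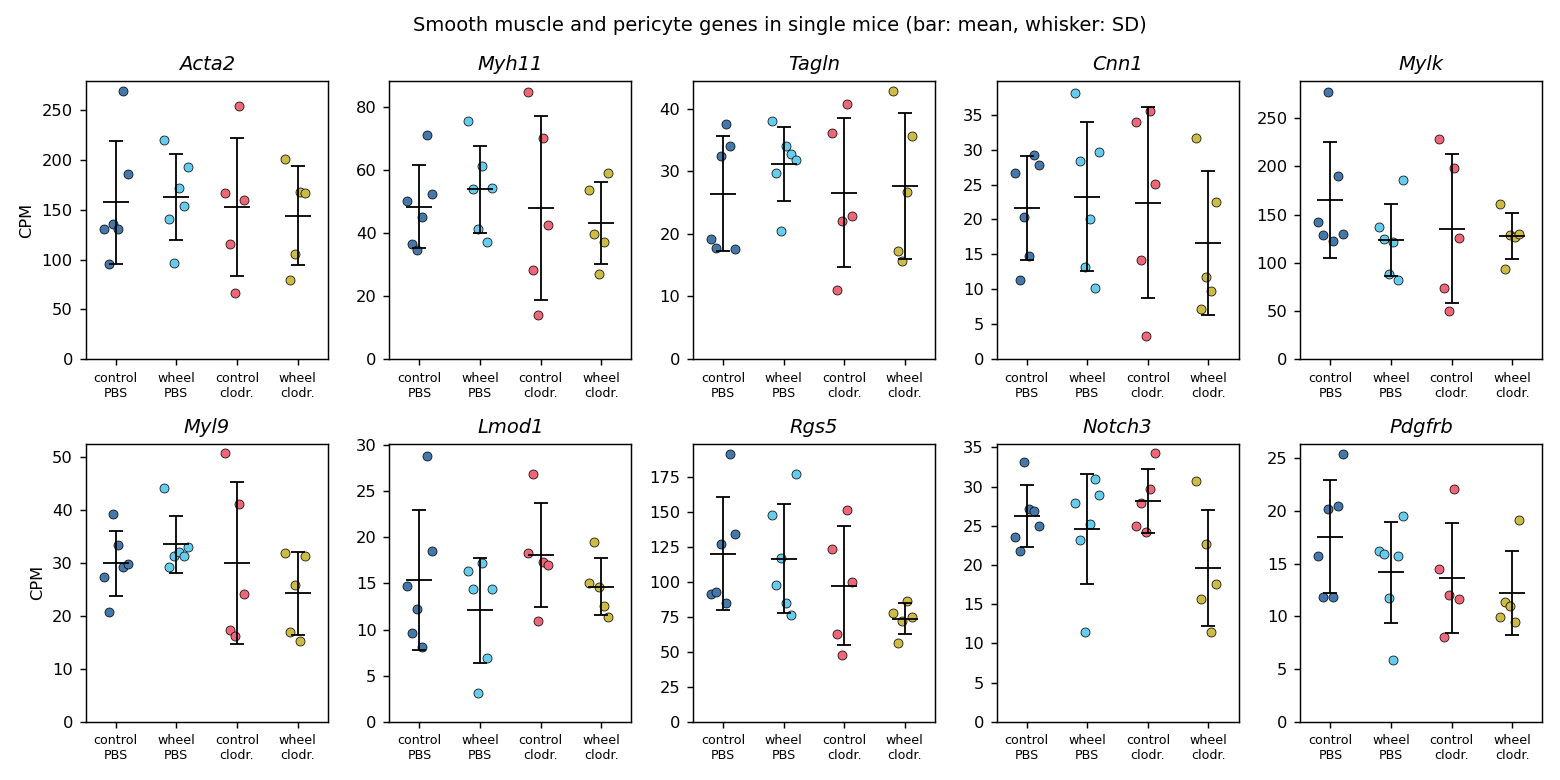
CPM (vertical axes, from 0) of the 10 genes in each of the 22 mice (points) by group (horizontal axes), with the group mean (bar) and SD (whisker). The points of the 4 groups overlap for each gene, and the Rgs5 values of wheel mice with clodronate lie between 56.1 and 86.5 CPM.

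The promoters of 7 of the 10 genes were found in the RefSeq table (GRCm38.p6), from 250 bases before to 50 after the transcript start. Those of Myh11, Tagln and Pdgfrb were not used here. The CArG box was matched on both strands, and the 4 sequences printed are the 3 promoters that hold it with at most 1 letter off and that of Rgs5, which holds none of these matches. Capitals mark the matches.
Acta2 (chr19:34255324-34255623, minus strand): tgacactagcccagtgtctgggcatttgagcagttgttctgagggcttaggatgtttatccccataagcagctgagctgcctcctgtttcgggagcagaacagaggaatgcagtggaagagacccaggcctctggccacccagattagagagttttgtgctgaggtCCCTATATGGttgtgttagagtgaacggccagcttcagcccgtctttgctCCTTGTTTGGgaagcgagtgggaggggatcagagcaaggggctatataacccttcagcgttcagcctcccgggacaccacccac
Myl9 (chr2:156775214-156775513, plus strand): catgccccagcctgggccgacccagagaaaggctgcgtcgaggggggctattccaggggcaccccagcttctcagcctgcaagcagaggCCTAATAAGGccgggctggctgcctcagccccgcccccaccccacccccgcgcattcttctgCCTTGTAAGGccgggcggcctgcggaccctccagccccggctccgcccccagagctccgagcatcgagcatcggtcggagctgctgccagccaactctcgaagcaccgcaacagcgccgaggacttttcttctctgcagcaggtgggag
Lmod1 (chr1:135324563-135324862, plus strand): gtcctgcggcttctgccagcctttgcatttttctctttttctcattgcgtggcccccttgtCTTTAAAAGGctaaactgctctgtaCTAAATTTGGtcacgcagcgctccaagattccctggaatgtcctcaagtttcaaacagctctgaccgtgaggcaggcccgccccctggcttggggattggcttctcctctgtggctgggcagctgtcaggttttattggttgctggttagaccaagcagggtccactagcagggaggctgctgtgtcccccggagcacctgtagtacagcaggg
Rgs5 (chr1:169655251-169655550, plus strand): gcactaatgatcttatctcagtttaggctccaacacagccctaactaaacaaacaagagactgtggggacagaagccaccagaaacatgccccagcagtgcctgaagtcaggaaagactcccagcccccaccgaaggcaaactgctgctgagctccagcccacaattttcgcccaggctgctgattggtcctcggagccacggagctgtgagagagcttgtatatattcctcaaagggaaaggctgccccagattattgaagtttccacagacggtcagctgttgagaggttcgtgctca
An exact CArG box was found in 1 of the 7 promoters, Myl9, at position -161 from the transcript start, against 1.57% of 27025 mouse promoters. With at most 1 letter off it was found in 3 of the 7, Acta2 at -84 and -34, Myl9 at -161 and -99 and Lmod1 at -189 and -164, against 21.4% of all promoters. The motif TGGGAA, the core bound by the Notch partner RBPJ, was in 1 of 7 (Acta2, 25.5% of all), CATTCC, bound by TEAD factors, in 3 of 7 (Acta2, Mylk and Lmod1, 14.6% of all) and TATAAA in 0 of 7 (14.2% of all). These are matches of letters only, in 1 window per gene, and CArG boxes elsewhere in the genes were not sought. The window of Mylk (chr16:34784700-34784999, plus strand) lies inside the gene, which starts at 34745210.

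The first comparison asked whether 2 weeks of wheel access altered these genes. None of the 10 passed an adjusted p of 0.05 (limma on log2(CPM + 1), Benjamini-Hochberg over 15138 genes) with PBS liposomes, where 0.0% of all genes did, and 0 of 10 had an unadjusted p under 0.05, against 4.91% of genes. The median log2 change, wheel minus control, was -0.0024 for the 10 genes and -0.085 for all genes. With clodronate liposomes 0 of 10 passed, against 0.00661% of genes, and 1 of 10, Notch3, had an unadjusted p under 0.05, against 10.4% of genes. In bulk tissue, fewer cells of a type and less RNA per cell cannot be told apart.

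Notch3 was measured with clodronate liposomes at 25.0, 27.9, 24.2, 29.7 and 34.3 CPM in control mice and at 30.7, 15.6, 22.7, 11.5 and 17.6 CPM in wheel mice. 4 of the 5 wheel mice were below every control mouse, and wheel mouse 1 lay among the control mice. 3 of those 4 (wheel mice 3, 4 and 5) had a high lymphocyte score and no control mouse with clodronate did. The change was -0.57 ± 0.24 (SE, log2 scale, limma adjusted p = 0.393). Without the 5 mice of high lymphocyte score it was -0.34 (limma adjusted p = 0.955), and the unadjusted p was no longer under 0.05, nor was it without control clodronate mouse 5 or wheel clodronate mouse 2 or 4. The part of lymphocytes in this was not tested. With PBS liposomes Notch3 was lowest, median and highest at 21.7, 25.9 and 33.1 CPM in control mice and at 11.5, 26.5 and 30.9 CPM in wheel mice, a change of -0.14 ± 0.22 (limma adjusted p = 0.991). The difference between both wheel effects was -0.43 ± 0.33 (interaction, limma adjusted p = 0.803).

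Averaged over both liposomes, 0 of 10 genes passed, as did 0.0% of all genes, and 1 of 10 had an unadjusted p under 0.05, against 8.09%. Notch3 had a log2 change of -0.35 (95% interval -0.69 to -0.01, limma adjusted p = 0.611), and without the 5 mice of high lymphocyte score -0.17 (limma adjusted p = 0.895). Tagln had the highest change, 0.18 (95% interval -0.27 to 0.62). The intervals of the 10 genes ran from -0.83 to 0.62, so changes of that size were not excluded by these data.

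The second comparison asked whether clodronate altered the same genes. In control mice 0 of 10 passed, against 0.0% of genes, with 0 of 10 at an unadjusted p under 0.05 against 6.99%. In wheel mice 0 of 10 passed, against 0.00661%, with 1 of 10, Rgs5, at an unadjusted p under 0.05 against 11.6%. Averaged over activity 0 of 10 passed, against 0.205% of genes (31 genes, all lower with clodronate), and 1 of 10, again Rgs5, had an unadjusted p under 0.05 against 10.4%. These comparisons share groups with each other, so their values are not independent.

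Rgs5 was measured in wheel mice with clodronate at 77.7, 56.1, 72.3, 86.5 and 74.7 CPM. In wheel mice with PBS its lowest, median and highest values were 76.3, 107 and 177 CPM. The highest value with clodronate, 86.5 CPM, was above the lowest 2 of the 6 PBS values, 76.3 and 84.9 CPM. The change was -0.61 ± 0.27 (limma adjusted p = 0.374), or 0.655 times the PBS level on the (CPM + 1) scale. In control mice Rgs5 was at 123, 62.8, 47.9, 151 and 99.9 CPM with clodronate and at 84.9, 110 and 191 CPM (lowest, median, highest) with PBS, a change of -0.37 ± 0.27 (limma adjusted p = 0.821). Averaged over activity the change was -0.49 (95% interval -0.88 to -0.10, limma adjusted p = 0.337), and without the 5 mice of high lymphocyte score -0.58 (limma adjusted p = 0.362).

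9 of the 10 genes had a fitted mean below that of PBS mice when averaged over activity, where 57.4% of all genes did, also with upper-quartile scaling. Their median log2 change was -0.22, against -0.04 for all genes. Lmod1 was the 1 with a higher mean, at 0.35 (95% interval -0.17 to 0.86, limma adjusted p = 0.660). Lmod1 was at 18.3, 26.8, 10.95, 17.4 and 17.0 CPM in control and 15.0, 19.5, 14.6, 12.6 and 11.4 CPM in wheel mice with clodronate. Its PBS values spread more widely, from 8.07 to 28.9 CPM in control and from 3.15 to 17.2 CPM in wheel mice.

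**Figure D2:**
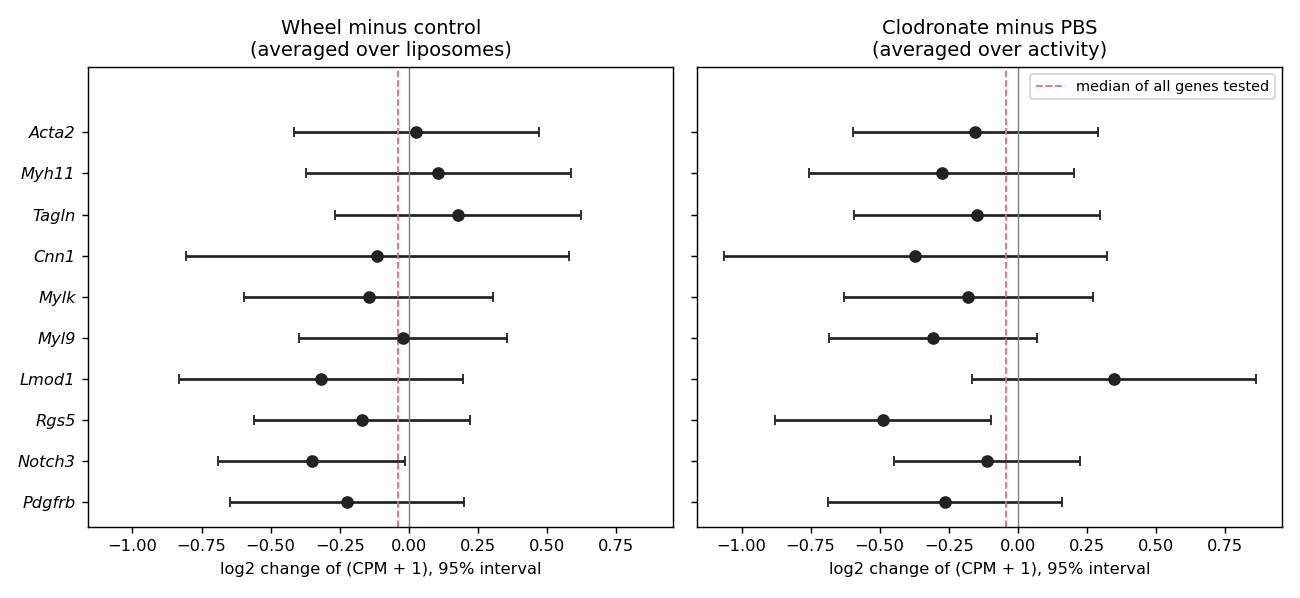
Log2 change of (CPM + 1) (horizontal axes) of each gene (rows) for wheel minus control and for clodronate minus PBS, with 95% intervals from limma (whiskers) and the median of all genes tested (dashed line). The intervals cross 0 except those of Notch3 on the left (-0.69 to -0.01) and Rgs5 on the right (-0.88 to -0.10), and neither gene passed the adjustment over all genes.

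The interaction of activity and liposome passed for 0 of 10 genes, against 0.0% of all genes, with 0 of 10 at an unadjusted p under 0.05 against 7.58%. Its fitted values ran from -0.43 (Notch3) to 0.52 (Mylk), with standard errors of 0.33 to 0.67. In the 4 comparisons of single groups none of the genes passed, so for none could the order of the 4 group means be told from the spread between mice.

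Other genes of the same cells were described from 3 lists. Of 30 contractile and regulatory genes 28 were tested, and Cald1, caldesmon, which binds actin in smooth muscle and in other cells (chr6:34598500-34775473, plus strand), fell with clodronate averaged over activity. It was the only one of the 28 to pass in any of the 7 comparisons, and Myocd (myocardin) and Pln were not tested for low values. Cald1 was at 188, 97.5, 99.9, 207 and 190 CPM in control and at 148, 98.2, 155, 130 and 156 CPM in wheel mice with clodronate. With PBS its lowest, median and highest values were 192, 261 and 362 CPM in control and 161, 215 and 267 CPM in wheel mice. All 5 wheel mice with clodronate were below all 6 wheel mice with PBS, while control mouse 4 with clodronate was above the lowest control mouse with PBS. Cald1 was named because it passed in these same data. The share of all genes tested that separate these groups was not computed.

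The log2 change of Cald1 was -0.73 ± 0.15 (limma adjusted p = 0.0417). The direction held without each mouse in turn (-0.79 to -0.66), but the call was lost in 13 of these 22 fits, without control PBS mice 1, 3 or 6, wheel PBS mice 1, 3, 4 or 6, control clodronate mice 2 or 3, or wheel clodronate mice 1, 2, 3 or 4 (adjusted p from 0.0511 to 0.1002). It was also lost without the 5 mice of high lymphocyte score (-0.87, adjusted p = 0.0952). The median change of the 28 genes was -0.05, against -0.04 for all genes.

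The largest other changes with clodronate in that list were Des at 1.16 (limma adjusted p = 0.465), Tpm2 at 1.07 (adjusted p = 0.474) and Aoc3 at -0.54 (adjusted p = 0.318). Des (desmin) and Tpm2 (beta-tropomyosin) are also made in skeletal muscle, and the summed level of 10 skeletal muscle markers ranged from 29.3 to 3466 CPM and from 21.6 to 376 CPM in control and wheel mice with PBS, and from 33.1 to 27023 CPM and from 29.5 to 12031 CPM with clodronate. All 10 of these markers were above 1 CPM in some mice, and their part in the values of Des and Tpm2 was not tested. For wheel minus control the extremes were Fhl1 at -0.95 and Nexn at -0.84, sarcomere-associated proteins, and Mkl1 and Mkl2, coactivators of serum response factor, at 0.40 and 0.34 (adjusted p 0.587 to 0.719).

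Of 22 pericyte and mural cell genes, all tested, 0 passed in any of the 7 comparisons. With clodronate averaged over activity 3 of the 22 had an unadjusted p under 0.05, Cspg4 (NG2, a pericyte surface proteoglycan) at -0.60 (adjusted p = 0.256), Tbx18 at -0.60 (adjusted p = 0.478) and Ndufa4l2 at 0.95 (adjusted p = 0.353), where 10.4% of all genes did. Plxdc1 was at 0.24 (adjusted p = 0.551). For wheel minus control the extremes were Heyl (a Notch target) at -0.40, Mcam at -0.23, P2ry14 at 0.38 and Colec11 at 0.20, with adjusted p of 0.724 to 0.841. P2ry14, Colec11 and Plxdc1 were at the floor in some mice of every group, so their values are of little depth.

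Of 24 ligands and partners of Notch3 and Pdgfrb, all tested, 0 passed in any of the 7 comparisons. The Notch ligands Jag1 and Dll4 had changes with clodronate of -0.55 and -0.68 (limma adjusted p of 0.231 and 0.381). Jag1 was lowest, median and highest at 17.0, 33.5 and 48.5 CPM in control and 27.0, 30.4 and 53.1 CPM in wheel mice with PBS, and at 18.4, 19.9 and 35.2 CPM and 13.2, 20.7 and 30.2 CPM with clodronate, so the groups overlapped. Jag2 was at 0.30 and the Pdgfrb ligand Pdgfd at 0.38 (adjusted p of 0.783 and 0.561). For wheel minus control the extremes were Notch4 at -0.57, Nrarp at -0.56, Tgfb1 at 0.28 and Tgfbr1 at 0.23 (adjusted p 0.587 to 0.782).

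The spread between mice was shared by most of these genes. Of the 45 pairs, 43 had a positive correlation of log2(CPM + 1) over the 22 mice, and 21 passed an adjusted permutation p of 0.05 by r and 23 by rho (100000 permutations, Benjamini-Hochberg over 45 pairs). The median r was 0.46, against 0.01 over all pairs of the 15138 genes. On deviations from the 4 group means the median was 0.48 and 22 pairs passed, and 18 passed without the 5 mice of high lymphocyte score. How many of all pairs of genes tested would pass was not computed, so these counts do not set the genes apart from others. Genes that share mice share depth and tissue make-up, so a correlation describes the samples.

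Among the 7 contractile genes 15 of 21 pairs passed. Myh11 and Cnn1 had the highest correlation, with r = 0.86 and rho = 0.826 (permutation p 3e-05 for each, adjusted p 0.00045 and 0.00075). Without the 2 mice farthest from the median of Cnn1, r was 0.81. Each later value without 2 mice left out those farthest from the median of the second gene or of the marker score. Acta2 followed Cnn1 with r = 0.82 and rho = 0.775 (permutation p 1e-05, the smallest 100000 permutations give, and 4e-05, adjusted p 0.000225 and 0.00075), and r = 0.69 without 2 mice. The 6 pairs of Lmod1 with the other contractile genes were the 6 that did not pass.

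Of the 7 pairs of Rgs5 with contractile genes 5 passed, those with Acta2, Myh11, Cnn1, Mylk and Myl9 (r from 0.65 to 0.74). The pair with Tagln had r = 0.42 and rho = 0.339 (adjusted p 0.088 and 0.163), and that with Lmod1 r = 0.15. Rgs5 and Pdgfrb, both of pericytes, had r = 0.62 and rho = 0.660 (permutation p 0.00265 and 0.0013, adjusted p 0.00702 and 0.00532), and r = 0.67 without 2 mice. With Acta2, r was 0.60 for Myl9 and 0.39 for Lmod1, whose promoters held 2 CArG matches each (adjusted permutation p 0.00819 and 0.108). For the genes with no match in the promoter window read here, r with Acta2 was 0.82 (Cnn1), 0.73 (Rgs5), 0.65 (Mylk) and 0.38 (Notch3). The adjusted permutation p of these were 0.000225, 0.00075, 0.00372 and 0.121. A link between the matches and the correlations was not tested.

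Lmod1 passed in 0 of its 9 pairs, with r from -0.07 (Tagln) to 0.39 (Acta2 and Notch3). Notch3 also passed in 0 of 9, with r from 0.13 (Myh11) to 0.42 (Myl9). Pdgfrb passed in 1 of 9, and its r with the contractile genes lay between 0.06 (Lmod1) and 0.46 (Mylk). Whether these correlations differ from those of the other genes was not tested.

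**Figure D3:**
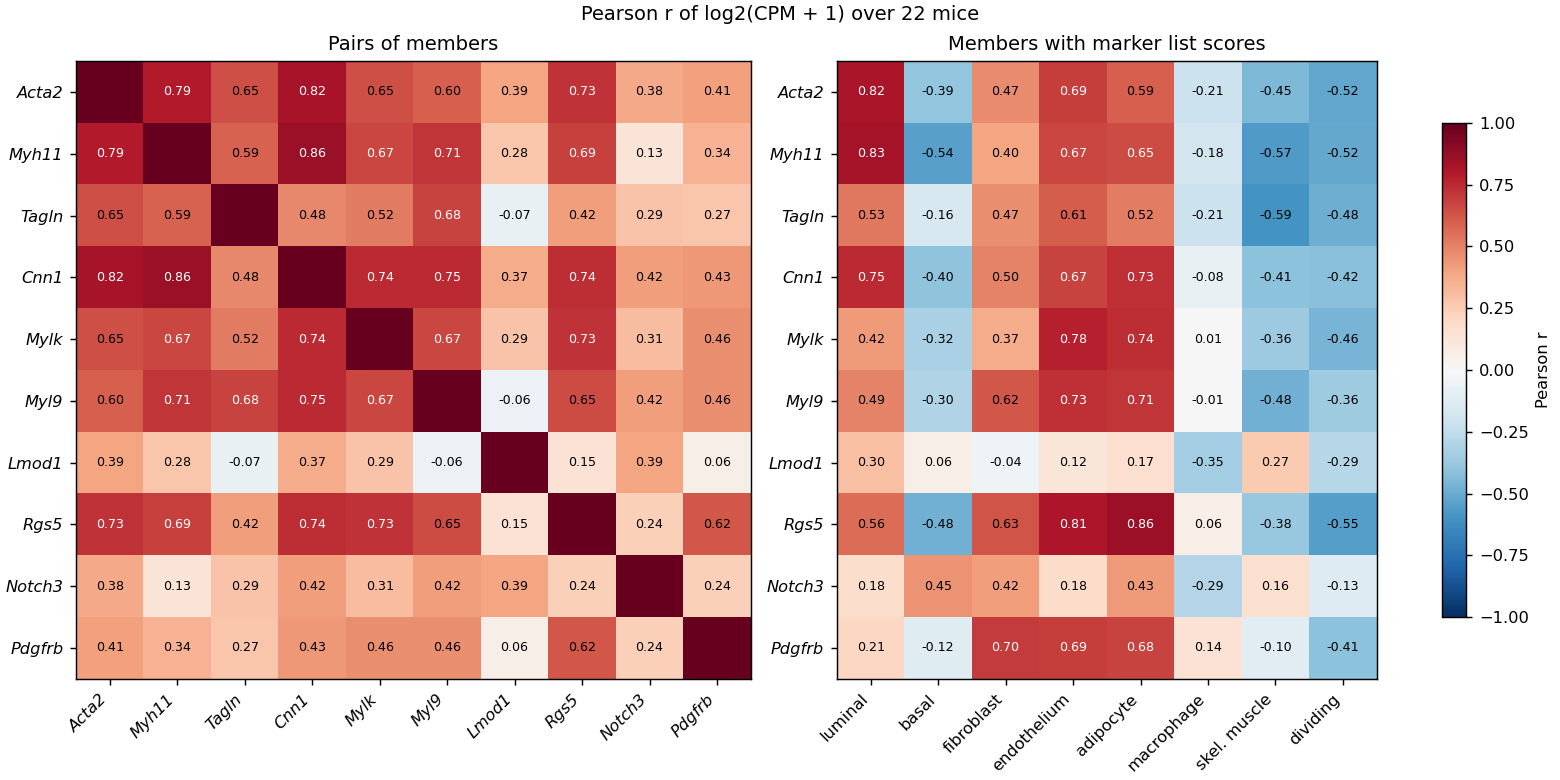
Pearson r of log2(CPM + 1) over the 22 mice for each pair of the 10 genes (left) and for each gene with the mean log2(CPM + 1) of 8 marker lists (right), red for positive and blue for negative. Acta2, Myh11, Cnn1, Mylk, Myl9 and Rgs5 form a red block that Lmod1, at r of -0.07 to 0.39, is outside of.

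The 10 genes ordered the mice. The mean log2(CPM + 1) over the 10 was lowest in control clodronate mouse 3 (4.39) and highest in control clodronate mouse 4 (5.87), mice of the same group. In mouse 3 all 10 genes were below the median and 5 were at the lowest level of any mouse: Acta2 66.5, Myh11 13.8, Cnn1 3.28, Mylk 50.2 and Rgs5 47.9 CPM. In mouse 4 all 10 were above the median, with Acta2 254, Myh11 70.0, Cnn1 35.5, Mylk 199 and Rgs5 151 CPM. Of the 5 mice of high lymphocyte score, 4 had 8 to 10 of the 10 genes below the median and wheel clodronate mouse 5 had 3 below it. Among the other mice, control clodronate mouse 3 had 0 genes above the median, wheel clodronate mouse 2 had 1 and control clodronate mouse 2 had 2. The rest had 3 to 10 above it. The share of all genes below the median in each mouse was not computed, and a link with lymphocytes was not tested.

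**Figure D4:**
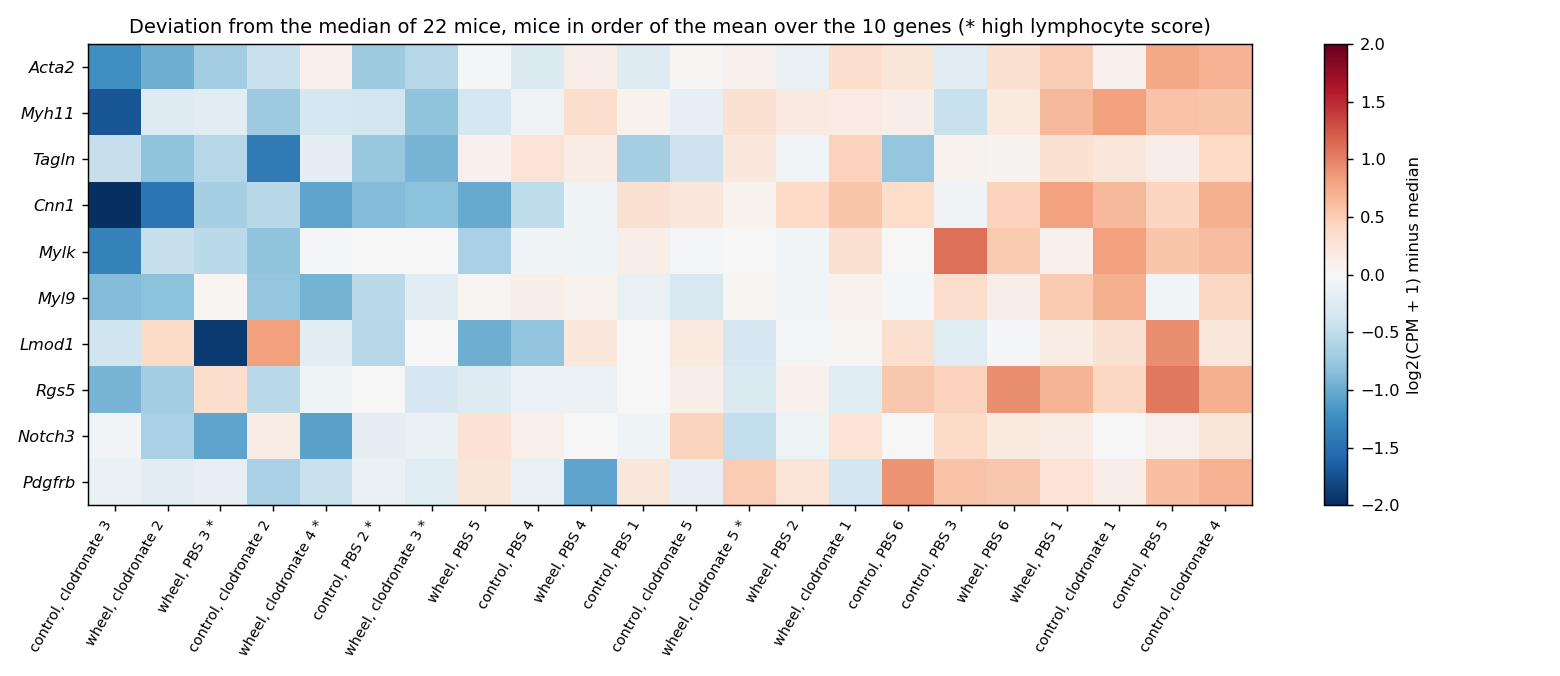
Deviation of log2(CPM + 1) from the median of the 22 mice (colour, red above and blue below) for the 10 genes (rows) and the mice (columns) in order of the mean over the 10 genes, with an asterisk at the 5 mice of high lymphocyte score. Both ends of the order are control mice with clodronate, mouse 3 (mean 4.39) at the left and mouse 4 (mean 5.87) at the right.

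The contractile and pericyte genes also correlated with markers of other cell types. 80 relations were computed, 10 genes with 8 marker lists, and 32 passed an adjusted permutation p of 0.05 by r and 25 by rho (by r, 27 on deviations from the group means and 28 without the 5 mice of high lymphocyte score). The lymphocyte list was not correlated because its scores fall into separate clusters. Adipocyte and blood endothelial scores passed with 8 of the 10 genes each, luminal epithelium with 6, fibroblast with 4 and macrophage with 0. The share of all genes tested that would pass with the same scores was not computed. These counts therefore do not set the 10 genes apart from other genes.

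Rgs5 correlated most closely with the adipocyte score, with r = 0.86 and rho = 0.901 (permutation p 1e-05 for each, adjusted p 0.000267 and 0.0002), and r = 0.83 without 2 mice. With the blood endothelial score (Pecam1, Cdh5, Kdr and others) Rgs5 had r = 0.81 and rho = 0.705 (permutation p 2e-05 and 0.00052, adjusted p 0.00032 and 0.00378), and r = 0.79 without 2 mice. Pdgfrb had its highest r with the fibroblast score, at r = 0.70 and rho = 0.758 (permutation p 0.00023 and 8e-05, adjusted p 0.00184 and 0.0008), and r = 0.82 without 2 mice. Its r was close to this with the blood endothelial score, 0.69, and the adipocyte score, 0.68 (adjusted permutation p 0.00247 and 0.00269). Pdgfrb is also made by fibroblasts.

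Myh11 and Acta2 had their highest values with the luminal epithelial score (Krt8, Krt18, Epcam and others). Myh11 had r = 0.83 and rho = 0.862 (permutation p 1e-05 for each, adjusted p 0.000267 and 0.0002), and r = 0.82 without 2 mice. Acta2 had r = 0.82 and rho = 0.824, with the same permutation and adjusted p, and r = 0.88 without 2 mice. The summed level of the 9 luminal markers ranged from 334 to 1460 CPM and from 651 to 1110 CPM in control and wheel mice with PBS, and from 328 to 1518 CPM and from 598 to 1228 CPM with clodronate.

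The basal list, which holds keratins and other genes of myoepithelium (8 of 9 markers in the tables), gave no positive relation that passed. Myh11 had r = -0.54 and rho = -0.501 with it (permutation p 0.00802 and 0.0189, adjusted p 0.0247 and 0.0541), and r = -0.68 without 2 mice. With the mean of the 10 genes, 6 of the 8 markers had a negative r, the keratins Krt5 (-0.42), Krt14 (-0.45), Krt15 (-0.36) and Krt17 (-0.43) and also Trp63 (-0.25) and Cdh3 (-0.27). The other two were positive, Lgr5 (0.32) and Oxtr, the oxytocin receptor through which myoepithelium contracts (0.77). Krt14 and Oxtr were singled out for their levels after these values were seen. Krt14 ranged from 26.4 to 1946 CPM over the mice and Oxtr from 3.98 to 75.8 CPM, and basal keratins are also made by skin.

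Besides that of Myh11 with the basal list, the negative relations that passed by r were those of Myh11 and Tagln with skeletal muscle (r = -0.57 and -0.59) and of Acta2, Myh11 and Rgs5 with dividing cells (r = -0.52, -0.52 and -0.55). Their adjusted permutation p by r ran from 0.0130 to 0.0397, and by rho only Myh11 with skeletal muscle (rho = -0.572, adjusted p 0.0211) and Rgs5 with dividing cells (rho = -0.519, adjusted p 0.0461) passed. Without 2 mice the 5 values of r were -0.56, -0.35, -0.32, -0.41 and -0.38. The skeletal muscle markers reached 27023 CPM in 1 mouse, a share of the total that other genes then do not have, and its part in these relations was not tested.

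Outside the 10 genes, the 5 of the 15138 tested that were most like their mean over the 22 mice were Sparcl1 (r = 0.90), Zbtb20 (r = 0.90), Aqp1 (r = 0.90), Inhbb (r = 0.89) and Nfia (r = 0.88), given as a description. Their median levels were 245, 492.7, 123, 33.1 and 332 CPM. Of the related genes in the 3 lists, Des had r = -0.49 with the mean of the 10 genes and Actg2, enteric smooth muscle actin, r = 0.20.

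**Figure D5:**
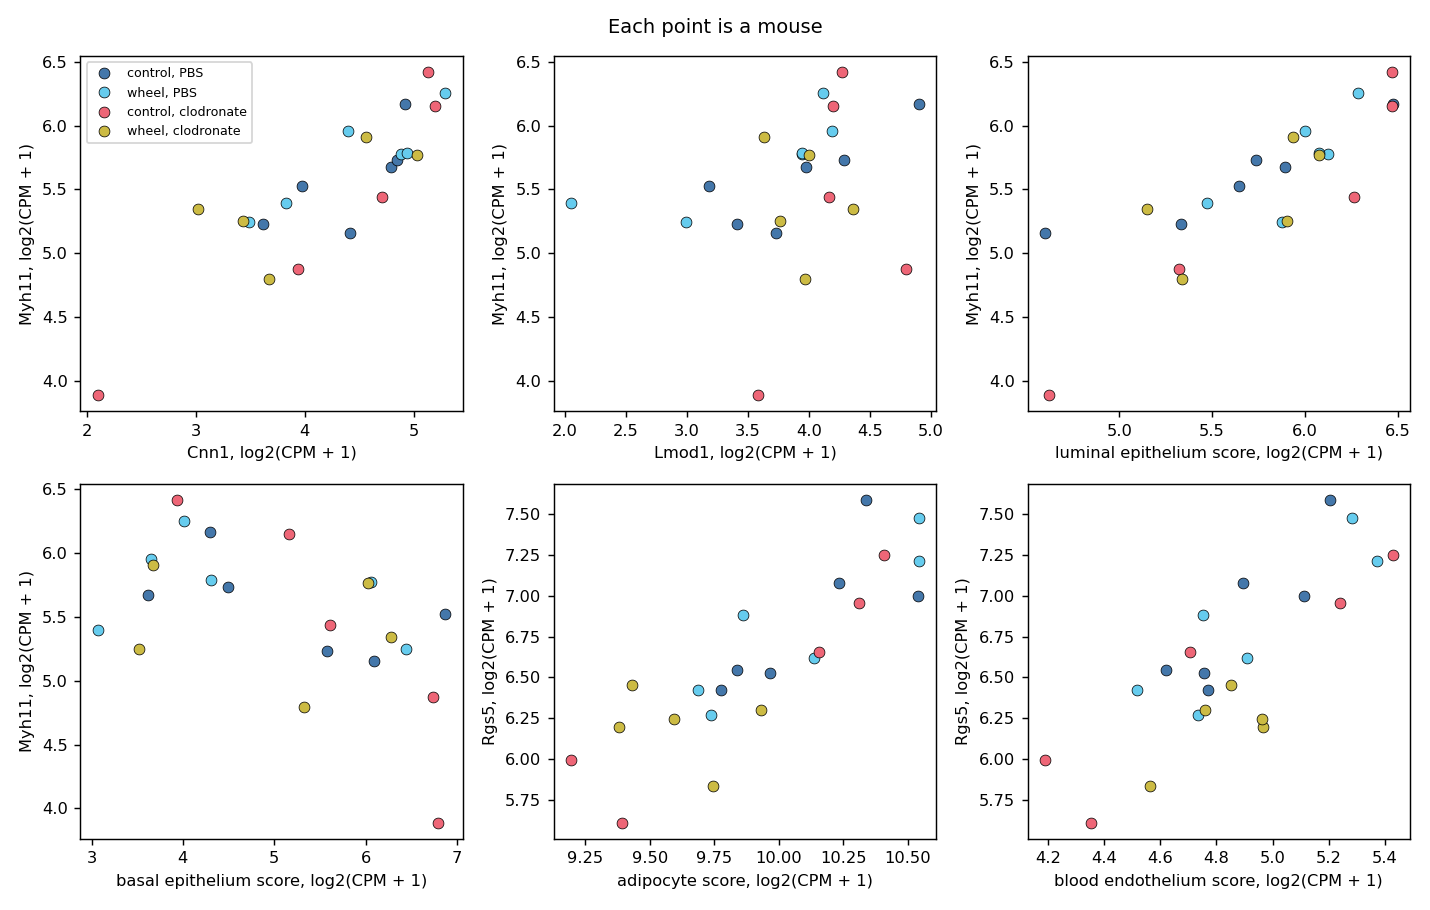
Myh11 (upper panels and lower left) or Rgs5 (lower middle and right) in log2(CPM + 1) on the vertical axis against another gene or a marker score in log2(CPM + 1) on the horizontal axis, 1 point per mouse coloured by group. Myh11 climbs with Cnn1 (r = 0.86) and the luminal score (r = 0.83) but not with Lmod1 (r = 0.28), and Rgs5 climbs with the adipocyte (r = 0.86) and endothelial (r = 0.81) scores.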

How the data were processed

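RNA of left mammary tissue from 22 mice was sequenced with QuantSeq 3′ FWD. The authors mapped reads with STAR 2.5.3a to GRCm38, per the submitters' processing notes, and deposited 1 table per mouse, with a signal in CPM for every gene, relative to all reads (unmapped, multimapping and unassigned ones included) with values below 1 set to 1. The annotation and the strand of counting are not given in the sources used here. The floor hides up to 13 to 20 reads per gene, so count models were not used. All values above the floor were whole reads within 0.1, and the depth was a median of 16293026 reads per mouse. 4 rows naming no gene were left out, and for 106 symbols on several rows the highest was kept.

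The 15138 genes that exceeded the floor in 5 or more mice entered limma 3.58.1 (R 4.3.3) on log2(CPM + 1) (eBayes with a variance trend, 4 group means, 7 comparisons, Benjamini-Hochberg adjustment). A fold on this scale understates the change of low genes. P-values measure the spread between mice. Tested on simulated data for wheel minus control with PBS, the step recovered 99% of 200 genes changed by 1.5 (log2) among 15138, with 8 false calls, and made 0 calls without changes. The simulation gave every gene the same dispersion and no differences in tissue make-up between mice. It does not tell how often changes smaller than 1.5, or genes that vary more between mice, would be found. Correlations used 100000 two-sided permutations (numpy 2.4.6), and the limits of the 95% intervals used scipy 1.17.1. The genes and lists were chosen with earlier results of these data known, and further genes were named if they passed in any comparison or had the 2 highest or 2 lowest changes of their list in an averaged comparison. Promoters are from RefSeq, positions from GENCODE M21, and copies were sought with BLAST 2.17.0 at 97% identity over the last 400 bases. The alternatives were other pseudocounts, filters, scalings and fits, a block on the replicate number, and fits without each mouse. Leaving out the 5 mice of high lymphocyte score was chosen after seeing the data. The deposited replicate numbers name different mice and were not used as pairs in the main fit.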

Additional observations from a re-analysis of the deposited data

Results flagged for a closer look

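In 3 of 44 combinations of gene and group (11 genes with Cald1, 4 groups), 1 mouse stood farther from the others than Dixon's 95% limit, where chance gives about 2.2. Myl9 was high in wheel PBS mouse 1, at 5.496 on the log2(CPM + 1) scale (44.1 CPM, next 33.1 CPM). Notch3 was low in wheel PBS mouse 3, at 3.643 (11.5 CPM, next 23.2 CPM), 1 of the 5 mice of high lymphocyte score. Pdgfrb was high in wheel clodronate mouse 5, at 4.335 (19.2 CPM, next 11.3 CPM), also 1 of those 5.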

How the results depend on the processing

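0 of the 10 genes passed in any of 228 fits over the 7 comparisons and all settings, with a lowest adjusted p of 0.126. The Cald1 call became 0 genes called in its list with no filter, with upper-quartile scaling, with scaling to assigned reads, with no variance trend and without the 5 mice of high lymphocyte score, with adjusted p of 0.0694, 0.122, 0.0755, 0.0849 and 0.0952. The 31 genes called with clodronate averaged over activity became 24, 12, 20, 20 and 0 in the same order. Deviations from the group means had a mean r of 0.048 between same-numbered mice and -0.0086 between differently numbered mice of different groups. Of the same-numbered pairs, 12 of 31 had r over 0.1, from -0.39 to 0.52. Whether the replicate numbers pair mice was not tested. With the replicate number as a block 0 of the 10 genes passed, Cald1 stayed at -0.72 (adjusted p = 0.0465) and 11 genes were called, and no other call of a listed gene was altered.

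Signs of small changes turned. Upper-quartile scaling gave Rgs5 0.0521 (wheel minus control, PBS), Acta2 0.0177 and Tagln 0.0631 (clodronate minus PBS, control) and Myl9 0.0156 (wheel minus control, averaged), and took the interaction's median over all genes from 0.09 to -0.01. Scaling to assigned reads gave Acta2 0.0445 (wheel minus control, clodronate) and Myl9 0.0285 (wheel minus control, averaged). Without the 5 mice of high lymphocyte score Notch3 was 0.00747 (wheel minus control, PBS), Mylk -0.0418 (clodronate minus PBS, wheel), Acta2 -0.0211 (wheel minus control, averaged) and Myh11 0.0488 (interaction). The causes were not tested.

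Leaving out 1 mouse turned the sign in 24 of 70 results. For wheel minus control with PBS the ranges were -0.0459 to 0.25 for Acta2, -0.12 to 0.24 for Cnn1, -0.18 to 0.10 for Rgs5 and -0.21 to 0.0569 for Notch3. With clodronate they were -0.29 to 0.19 for Acta2, -0.31 to 0.33 for Myh11, -0.19 to 0.26 for Tagln, -0.18 to 0.36 for Mylk, -0.39 to 0.0077 for Myl9 and -0.29 to 0.0517 for Pdgfrb. For clodronate minus PBS in control mice they were -0.31 to 0.16 for Acta2, -0.49 to 0.14 for Myh11, -0.23 to 0.22 for Tagln, -0.46 to 0.31 for Cnn1 and -0.34 to 0.0583 for Myl9, and in wheel mice -0.0237 to 0.21 for Mylk. For wheel minus control averaged they were -0.10 to 0.14 for Acta2, -0.0765 to 0.24 for Myh11, -0.38 to 0.00849 for Cnn1 and -0.11 to 0.0886 for Myl9. For the interaction they were -0.37 to 0.11 for Acta2, -0.46 to 0.17 for Myh11, -0.18 to 0.27 for Lmod1 and -0.0222 to 0.37 for Pdgfrb. Of the pairs 21 and of the marker relations 39 passed with upper-quartile scaling. The largest standard error among the 10 genes was 0.33 in the averaged comparisons, 0.49 in those of single groups and 0.67 in the interaction.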
